A study of Mus musculus with 7 samples.

Results

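The 9 genes described here encode the signalling chains of the B cell antigen receptor (Cd79a and Cd79b), surface proteins that tune or accompany that receptor (Cd22, Fcmr and Cr2), a receptor-proximal kinase (Blk) and transcription factors of B cell identity (Pax5, Ebf1 and Spib). They were taken by symbol from the 55335 gene identifiers of the deposited tables, and each had 1 row. RNA came from type 2 innate lymphoid cells (ILC2s), lymphocytes without a rearranged antigen receptor, which had been sorted from mouse hearts as CD45+ Lineage- ST2+ cells. The 3 naive libraries came from untransplanted hearts, and the 4 allograft libraries came from Balb/C hearts in C57BL/6 (B6) recipients, a model of acute rejection, taken on day 7. Each library pooled the cells of 4 to 7 hearts, so that the spread between libraries is a spread between pools. The labels give no strain for the naive hearts, no genotype, sex or age, and the same time of 7 days for both groups. The antibodies of the lineage gate are not named in the labels, and the sort was on ST2, so neither group is a B cell sample by design.

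The B cell receptor is a membrane immunoglobulin that cannot signal by itself. It is held by a CD79A and CD79B heterodimer, whose tails are phosphorylated by Src-family kinases such as BLK and LYN and then bind SYK, while CD22 recruits phosphatases that damp the signal and the complement receptor CR2 lowers the threshold for it. EBF1 and PAX5 establish and hold the B lineage programme and drive Cd79a, and SPIB, an ETS-family factor, acts in B cells and also in plasmacytoid dendritic cells. FCMR is the receptor for the Fc part of IgM and is found on B cells and on some T cells.

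Start regions of 3 of the genes are shown because their transcripts had different patterns over the libraries: Cd79a and Cd22 had a higher share of the counts in every allograft than in any naive library, while Spib was highest in a naive library. Each run covers 250 bases before and 50 after the gene's start in RefSeq (GRCm38.p6), 5′ to 3′. Cd79a lies at chr7:24897247-24897546 on the plus strand, Cd22 at chr7:30878979-30879278 on the minus strand and Spib at chr7:44532022-44532321 on the minus strand. Capitals mark matches on either strand to CCCNNGGG (the core bound by EBF factors), ATGCAAAT (the octamer), GGAAGT (an ETS site) and GAGGAA (a PU box, bound by SPI1 and SPIB). The last pair of motifs can overlap each other.
Cd79a: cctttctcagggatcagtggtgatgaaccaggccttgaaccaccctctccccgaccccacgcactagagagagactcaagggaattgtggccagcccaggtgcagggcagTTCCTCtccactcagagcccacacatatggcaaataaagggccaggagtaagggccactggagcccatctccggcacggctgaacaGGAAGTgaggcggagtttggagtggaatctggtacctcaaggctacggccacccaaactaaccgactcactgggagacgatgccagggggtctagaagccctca
Cd22: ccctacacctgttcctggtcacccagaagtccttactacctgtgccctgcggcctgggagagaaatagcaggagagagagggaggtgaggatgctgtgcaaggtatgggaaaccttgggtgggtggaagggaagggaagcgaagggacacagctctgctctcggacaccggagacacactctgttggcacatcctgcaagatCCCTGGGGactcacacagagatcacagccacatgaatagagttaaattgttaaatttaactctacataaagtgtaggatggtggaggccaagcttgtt
Spib: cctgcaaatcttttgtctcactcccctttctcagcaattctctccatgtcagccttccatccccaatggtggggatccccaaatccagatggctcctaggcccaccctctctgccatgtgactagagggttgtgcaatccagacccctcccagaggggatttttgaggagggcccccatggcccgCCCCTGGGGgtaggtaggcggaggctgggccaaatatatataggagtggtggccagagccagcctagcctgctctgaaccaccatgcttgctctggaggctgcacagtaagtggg
The Cd79a region held 1 match to GGAAGT and 1 to GAGGAA, the Cd22 region 1 match to CCCNNGGG, and the Spib region 2 overlapping matches to CCCNNGGG. Of 32817 regions of the same length, 13.7% held CCCNNGGG, 23.8% held GGAAGT, 28.3% held GAGGAA and 1.74% held ATGCAAAT. The RefSeq table had a region for 7 of the 9 genes (8 regions, since Ebf1 had 2), of which 2 held CCCNNGGG, 3 held GGAAGT, 3 held GAGGAA and 0 held ATGCAAAT. A match describes letters only, and a region without a match to these strict patterns can still be bound by the factor.

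Library totals ran from 29107326 to 53044907 counts. The allograft libraries had 92.1% to 97.1% of the 17015 tested genes above 3 counts, which is the number that a count of 0 allows. The values were 78.1%, 88.4% and 69.8% in naive replicates 1 to 3. Naive replicate 2 stood apart: 26.5% of its counts were mitochondrial against 2.04% to 3.11% in the other 6 libraries, and 12 markers of ILC2s, among them Il1rl1 (ST2) and Gata3, summed to 199 CPM (counts scaled by the library total) there (11 of 12 above 3 counts). That sum was 6312 and 8293 in naive replicates 1 and 3 (12 of 12 in each) and 7074 to 7666 in the allografts (12 of 12 in each). Results that rest on naive replicate 2 are therefore given with and without it.

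Most of the 9 genes were detected in every allograft, while the naive libraries ranged from 1 to 7 of them. More than 3 counts were found for 9, 9, 7 and 8 of the 9 genes in allograft replicates 1 to 4. In naive replicate 1 it was 3 (Cd79a, Cd79b and Fcmr), in naive replicate 2 it was 7 (all but Pax5 and Spib) and in naive replicate 3 it was 1 (Spib). Over all tested genes, the shares above 3 counts were 96.3%, 95.3%, 92.1% and 97.1% in allograft replicates 1 to 4. In naive replicates 1 to 3 they were 78.1%, 88.4% and 69.8%. Near-complete detection in the allografts was thus common to all tested genes, while the sets of the 9 genes differed between the naive libraries. The numbers of the 9 genes detected were the same in all 7 libraries after every library was thinned to the smallest total. In bulk RNA, fewer cells of a type and less RNA per cell cannot be told apart, here and in all that follows.

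None of the 9 genes passed the test between the groups (edgeR's quasi-likelihood test, Benjamini-Hochberg adjustment over 17015 genes, 0 of 9 under 0.05). Over all genes the same rule called 6, or 0.0353%. At an unadjusted p under 0.05 there were 2 of the 9, Blk and Pax5, both higher in allografts, a direction and threshold that 6.41% of all genes met. Pax5 had 0 counts in all naive libraries, so it could only come out higher. DESeq2 called 2 (Blk and Pax5), where it called 6.66% of all genes. In DESeq2 the adjusted p was not available for Cd79b, Cr2, Ebf1 and Spib, each of which had 1 naive library far above the rest. limma on log2(FPKM + 0.1) called 2 (Cd79a and Blk, 1.82% of all genes), and limma-voom with quality weights called 0 (0.00588% of all genes). None of the 9 was called with DESeq2 size factors in edgeR (0.0235% of all genes), with libraries thinned to the smallest total (0.0365%), with a mean of at least 50 counts (0.0342%), without a low-count filter (0.0142%), without naive replicate 1 (0.568%) or without naive replicate 3 (0.0372%). With a replicate block or without any 1 allograft, 0 of the 9 and 0.00% of all genes were called. Every allograft library lay above every naive library for 3 of the 9, Cd79a, Cd22 and Blk, against 12.5% of all genes, and for 0 of the 9 it lay below (2.15% of all genes, or 3.19% with TMM-scaled CPM). Without naive replicate 2, edgeR called Blk and Ebf1, where 3.10% of all genes were called, and 4 of the 9 (Cd79a, Cd22, Blk and Ebf1) lay above both remaining naive libraries in every allograft, against 21.0% of all genes. Cd22, Blk and Ebf1 had 0 counts in both of those naive libraries, so they could only come out higher there.

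**Figure D1:**
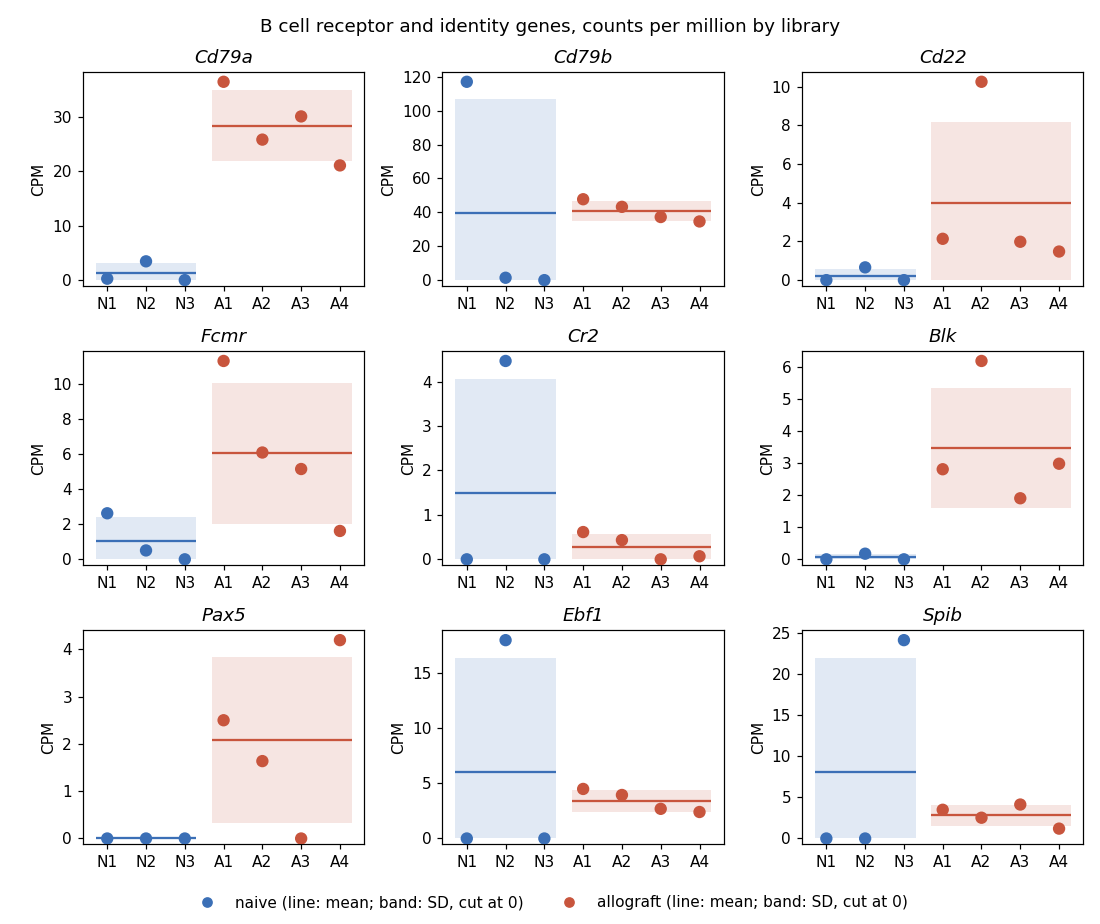
CPM (linear axis from 0) of each of the 9 genes in naive libraries N1 to N3 and allograft libraries A1 to A4, with the group mean as a line and the SD as a band. Cd79a, Cd22 and Blk are higher in every allograft than in every naive library, while Cd79b, Cr2, Ebf1 and Spib each have their highest value in 1 naive library.

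The signalling chain gene Cd79a (ENSMUSG00000003379, mm10 chr7:24897381-24902197, plus strand) was higher in every allograft than in every naive library. It had 0.264, 3.45 and 0 CPM across naive replicates 1 to 3, from 14, 157 and 0 counts. In allograft replicates 1 to 4 it had 36.4, 25.8, 30.1 and 21.1 CPM. The groups did not overlap, and the lowest allograft lay well above naive replicate 2, the highest naive library. The mean was 28.3 ± 6.52 CPM (SD, n = 4) against 1.24 ± 1.92 CPM (SD, n = 3), with an exact two-sided permutation p of 0.0286, the smallest that 35 splits of 7 libraries allow. In edgeR's fit its log2 fold change was 3.97 (SE 1.76, adjusted p = 0.513), which became 7.66 without naive replicate 2 (adjusted p = 0.0539).

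The partner gene Cd79b (ENSMUSG00000040592, chr11:106311341-106314762, minus strand) did not follow Cd79a in the naive hearts. Its values were 117, 1.41 and 0 CPM across naive replicates 1 to 3 and 47.7, 43.3, 37.2 and 34.6 CPM in allograft replicates 1 to 4. Naive replicate 1 was 2.45 times the highest allograft (6210 counts, 95% Wilson interval 114 to 120 CPM), and the other naive libraries were below every allograft. The group means were therefore alike, 39.5 ± 67.2 CPM (SD, n = 3) and 40.7 ± 5.92 CPM (SD, n = 4), with a log2 fold change of 0.05 (SE 1.79, edgeR adjusted p = 0.998) and an exact permutation p of 0.971. Leaving out naive replicate 1 gave 5.31 (adjusted p = 0.219), and the sign turned without naive replicate 2 or 3 (-0.54 each) and without allograft replicate 1 (-0.06).

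The CD79 proteins work as a pair, so the ratio of their transcripts was compared on the per-length scale (FPKM, fragments per kilobase of transcript and per unit of depth). In the allografts Cd79a FPKM divided by Cd79b FPKM was 0.748, 0.584, 0.792 and 0.596, a mean of 0.680 ± 0.105 (SD, n = 4). In naive replicate 1 the ratio was 0.00220, since Cd79b had 71.8 FPKM and Cd79a 0.158 FPKM. In naive replicate 2 it was 2.44, with 2.17 FPKM for Cd79a and 0.889 FPKM for Cd79b, and in naive replicate 3 both were at 0 counts. The ratio stayed between 0.584 and 0.792 in the 4 allografts, and each naive library with counts lay outside that range, on opposite sides.

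**Figure D2:**
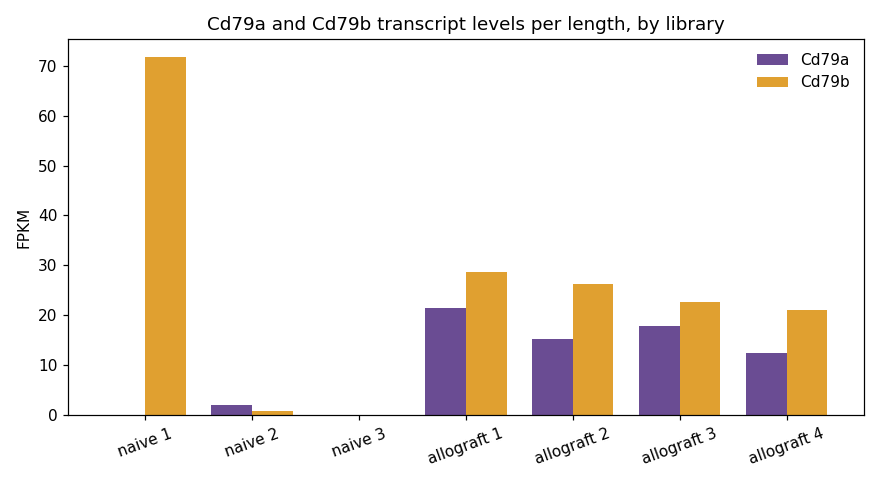
FPKM (linear axis from 0) of Cd79a and Cd79b in each of the 7 libraries. The chains stand side by side in the 4 allografts, at 12.5 to 21.5 FPKM for Cd79a and 20.99 to 28.7 FPKM for Cd79b, while naive replicate 1 shows Cd79b at 71.8 FPKM with almost no Cd79a.

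Neither CD79 gene overlapped another gene in GENCODE M21. Of 8 further markers of B cells (the heavy chain genes Ighm and Ighd, 3 light chain genes and others), naive replicate 1 had 1 above 3 counts, Ighm with 148 CPM. Ms4a1, which encodes the B cell surface protein CD20, had 0 counts in that library, beside the 6210 counts of Cd79b.

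Among the surface proteins, the inhibitory lectin gene Cd22 (ENSMUSG00000030577, chr7:30865402-30880342) was low in all naive libraries, at 0, 0.659 and 0 CPM. It had 2.14, 10.2, 1.98 and 1.48 CPM in allograft replicates 1 to 4. The groups did not overlap, but the allograft mean of 3.96 ± 4.20 CPM (SD, n = 4) rested largely on allograft replicate 2. Its log2 fold change was 3.58 (SE 2.25, edgeR adjusted p = 0.702), or 10.30 without naive replicate 2 (adjusted p = 0.0635), and its exact permutation p 0.114. Against naive replicates 1 and 3, which had 0 counts, the allograft mean was at least 63.2-fold higher, taking 3 counts per library as the floor.

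Fcmr, the IgM receptor gene (ENSMUSG00000042474, chr1:130865669-130880791), had 2.62, 0.506 and 0 CPM across naive replicates 1 to 3. Its allograft values were 11.3, 6.08, 5.14 and 1.61 CPM, so that allograft replicate 4 lay below naive replicate 1 and the groups overlapped. Its log2 fold change was 2.43 (SE 1.74, adjusted p = 0.741) in edgeR's fit, with an exact permutation p of 0.0857.

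Cr2 (ENSMUSG00000026616, chr1:195136811-195176716), the complement receptor that follicular dendritic cells also carry, was low in the allografts. It had 0.613, 0.432, 0 and 0.0687 CPM there, from 27, 14, 0 and 2 counts. In the naive libraries it had 0, 4.46 and 0 CPM, so that naive replicate 2 (203 counts, Wilson interval 3.89 to 5.12 CPM) was 7.28 times the highest allograft. The log2 fold change of -2.98 (SE 2.55, edgeR adjusted p = 0.791) came from that library, and it was 6.51 without it (adjusted p = 0.270).

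The Src-family kinase gene Blk (ENSMUSG00000014453, chr14:63372836-63417037, minus strand) had 0, 0.176 and 0 CPM across naive replicates 1 to 3. In the allografts it had 2.82, 6.202, 1.91 and 2.99 CPM, and no allograft overlapped a naive library. In edgeR's fit Blk had a log2 fold change of 5.30 (SE 2.07, unadjusted p = 0.0354, adjusted p = 0.419) and the exact permutation p was 0.0571. Of the 9 genes, Blk was called under the most alternatives: without naive replicate 2 (adjusted p = 0.0437), with DESeq2 (0.0401) and with limma on FPKM (0.0249). Against naive replicates 1 and 3 the allograft mean was at least 55.5-fold higher than 3 counts per library.

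Of the transcription factor genes, Pax5 (ENSMUSG00000014030, chr4:44524757-44710487, minus strand) was the one with 0 counts in all 3 naive libraries. It had 2.499, 1.64, 0 and 4.19 CPM in allograft replicates 1 to 4, so 3 of the 4 allografts held it (110, 53 and 122 counts) and allograft replicate 3 did not. The allograft mean of 2.08 ± 1.75 CPM (SD, n = 4) was at least 32.6-fold above 3 counts per naive library. The groups overlapped at 0, with an exact permutation p of 0.143 and an edgeR adjusted p of 0.341. Genes on the opposite strand inside Pax5 had at most 48 counts in a library, and the use of strand in counting is not stated in the sources used here.

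Ebf1 (ENSMUSG00000057098, chr11:44617317-45008091, plus strand), which acts above Pax5 in B cell development and is also expressed in mural and fat-lineage cells, had 0, 18.002 and 0 CPM across naive replicates 1 to 3. Its allograft values were 4.50, 3.95, 2.69 and 2.40 CPM, above 2 naive libraries and below the third. In edgeR's fit Ebf1 was at -1.40 on the log2 scale with an SE of 2.26 (not called, adjusted p = 0.918), and without naive replicate 2 it was 10.1 (adjusted p = 0.0433), where the allograft mean was at least 54.0-fold above 3 counts per library. An antisense gene within Ebf1, Gm12158, had 41 counts in naive replicate 2 against 819 for Ebf1.

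Spib (ENSMUSG00000008193, chr7:44525993-44532071, minus strand) had 0, 0 and 24.2 CPM across naive replicates 1 to 3. The allografts had 3.50, 2.53, 4.14 and 1.20 CPM, and naive replicate 3 (1053 counts, Wilson interval 22.7 to 25.7 CPM) was 5.84 times the highest of them. Its log2 fold change was -1.57 (SE 2.27, edgeR adjusted p = 0.901), and 9.77 without naive replicate 3 (adjusted p = 0.139). Spib was the only 1 of the 9 above 3 counts in that library. For each of Cr2, Ebf1 and Spib, the sign of the fitted change turned when the 1 naive library with the highest value was left out. The naive libraries that remained had 0 counts of that gene, so it could only come out higher there.

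**Figure D3:**
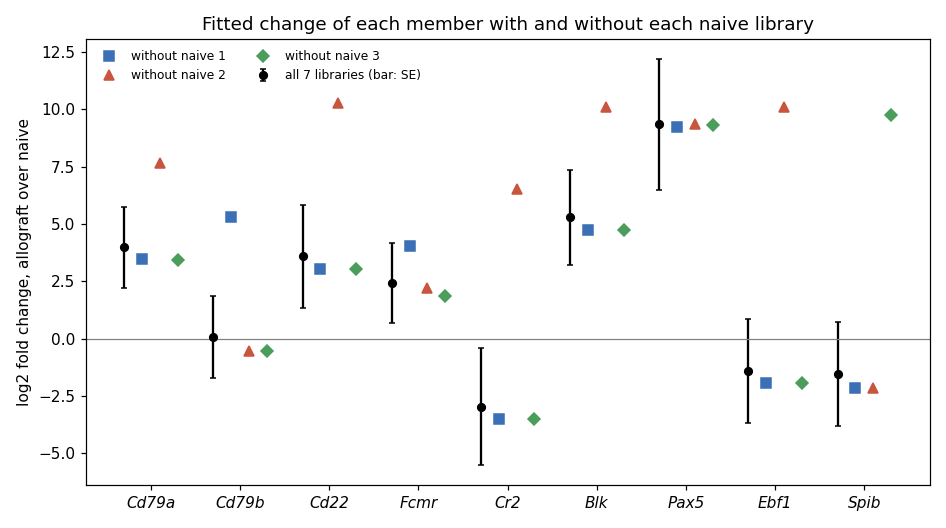
Log2 fold change (allograft over naive, edgeR) of the 9 genes with all 7 libraries (black, bars are the SE) and without each naive library in turn. Cr2 and Ebf1 change sign without naive replicate 2, and Spib changes sign without naive replicate 3. In each of these fits the remaining naive libraries have 0 counts of the gene, so the sign could only be positive. Cd79b moves from 0.05 to 5.31 without naive replicate 1 and to -0.54 without naive replicate 2 or 3.

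Within the allografts the genes spanned a wide range of levels per length. The means were 24.7 FPKM for Cd79b, 16.8 for Cd79a, 2.98 for Fcmr, 1.11 for Blk, 0.855 for Spib, 0.676 for Cd22, 0.298 for Ebf1, 0.202 for Pax5 and 0.0273 for Cr2. Cd79b was above Cd79a in 4 of 4 libraries although their ranges overlapped, and Cd79a was above Fcmr in 4 of 4 with no overlap. Every later pair of neighbours overlapped in range, with the higher gene ahead in 2 or 3 of 4 libraries. The receptor chains were thus apart from Fcmr beyond the spread, while neighbours among the lower 7 were not. Genes further apart in that order could be: every allograft value of Blk (0.614 to 1.99 FPKM) lay above every value of Ebf1 (0.213 to 0.392 FPKM).

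The 9 genes did not share 1 order over the allografts. Cd79b varied least, 1.38-fold from the lowest to the highest allograft, followed by Cd79a (1.73-fold) and Ebf1 (1.87-fold). Blk spanned 3.25-fold, Spib 3.44-fold, Cd22 6.93-fold and Fcmr 6.99-fold. Allograft replicate 1 was highest for Cd79a, Cd79b, Fcmr, Ebf1 and Cr2, allograft replicate 2 for Cd22 and Blk, allograft replicate 3 for Spib and allograft replicate 4 for Pax5. Allograft replicate 4 was lowest for Cd79a, Cd79b, Cd22, Fcmr, Ebf1 and Spib.

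Other genes of the receptor pathway and of B cell identity were examined in 3 lists of 22, 10 and 27 genes, 59 in all. None of the 57 tested passed in edgeR's fit in either direction, and 13 had an unadjusted p under 0.05, all of them higher in allografts, where 6.41% of all genes met that threshold and direction. Most of the 13 had 0 counts in every naive library and so could only come out higher, and all of these were in the identity list. DESeq2 called 10 (6.66% of all genes), limma on FPKM 11 (1.82%) and limma-voom 0 (0.00588%), those called all being higher. Every allograft lay above every naive library for 21 of the 57 and below for 0, where the shares over all genes were 12.5% and 2.15%. Among the 21, Ms4a1, Pou2af1, Bcl11a, Tnfrsf13c, Vpreb3, Fcrl5 and Fcrla had 0 counts in every naive library and could not lie below. In the other tests, too, a gene with 0 naive counts could only be called higher.

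The proximal signalling list (kinases, adaptors and enzymes downstream of the receptor) had 1 of 22 genes at an unadjusted p under 0.05, Syk, which is no more than the 6.41% of all genes, and a median log2 fold change of 0.41, against -0.01 over all tested genes. Syk, the kinase that binds the phosphorylated CD79 tails, had 1.62, 0.725 and 0 CPM across naive replicates 1 to 3 and 10.2 to 14.7 CPM in the allografts (log2 fold change 3.80, SE 1.58, edgeR adjusted p = 0.470). Fyn, a Src-family kinase common to lymphocytes, had 71.5, 17.0 and 91.9 CPM in naive and 118 to 154 CPM in allograft libraries (1.04, SE 0.460, edgeR adjusted p = 0.513). Btk, a kinase that acts on phospholipase C gamma below SYK, had 0, 0.264 and 0 CPM in naive hearts and 1.79 to 4.32 CPM in the allografts (4.44, SE 2.06, edgeR adjusted p = 0.536). Without naive replicate 2 the list had 1 gene called, Btk (adjusted p = 0.0437, with 3.10% of all genes called), and its median was 0.065 against 0.23 over all genes. Btk had 0 counts in naive replicates 1 and 3, so it could only come out higher.

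The inhibitory list had 1 of 9 tested genes at an unadjusted p under 0.05 (6.41% of all genes) and a median log2 fold change of 0.27. That gene was Ptpn6, which encodes the phosphatase SHP-1 that CD22 recruits, with 20.7, 20.99 and 5.16 CPM across naive replicates 1 to 3 and 44.97 to 67.5 CPM in the allografts (log2 fold change 1.58, SE 0.592, edgeR adjusted p = 0.388). Siglecg, a relative of Cd22 with the same inhibitory role, had 0, 0.725 and 0 CPM in naive and 6.51 to 11.5 CPM in allograft libraries (4.59, SE 2.17, edgeR adjusted p = 0.550, or 0.0344 without naive replicate 2). Pirb, an inhibitory receptor of B cells and myeloid cells, had at most 0.725 CPM in naive and 3.78 to 9.20 CPM in allograft libraries (3.80, SE 1.69, edgeR adjusted p = 0.513). Without naive replicate 2 the list had 2 of 9 genes called, Fcgr2b and Siglecg (3.10% of all genes), and its median was -0.23 against 0.23 over all genes. Both had 0 counts in naive replicates 1 and 3, so they could only come out higher. In naive replicate 2 Fcgr2b had 18.8 CPM, within its allograft range of 11.8 to 25.0 CPM.

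The identity list had 11 of 26 tested genes at an unadjusted p under 0.05 (6.41% of all genes) and a median log2 fold change of 2.11 against -0.01. Most of those 11 had 0 counts in all naive libraries: Ms4a1, Pou2af1, Bcl11a, Cd180, Tnfrsf13c, Vpreb3, Fcrl1, Fcrl5 and Fcrla. Such genes passed the low-count filter only through the allografts and could only come out higher. The list's count and median draw on them. Ms4a1 had 0 counts in all naive libraries and 34.1, 13.6, 25.0 and 23.1 CPM in allograft replicates 1 to 4, at least 376-fold above 3 counts per library (edgeR adjusted p = 0.111). Pou2af1, the octamer coactivator of B cells, also had 0 counts in all naive libraries and 3.74 to 6.33 CPM in the allografts, at least 72.2-fold above the same floor (edgeR adjusted p = 0.144). Tnfrsf13c, the receptor for the B cell survival factor BAFF, had 0 counts in naive libraries against 2.02 to 2.95 CPM in the transplanted ones, 41.8-fold or more above 3 counts per library (edgeR adjusted p = 0.144). Without naive replicate 2 these 3 were called together with Spi1, Vpreb3 and H2-Ob, 6 of 27 in all where 3.10% of all genes were called, and the list's median was 4.95 against 0.23. All 6 had 0 counts in naive replicates 1 and 3, so they could only come out higher. Unlike Cd79b and Spib, Ms4a1, Pou2af1 and Tnfrsf13c had no count in a naive library.

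**Figure D4:**
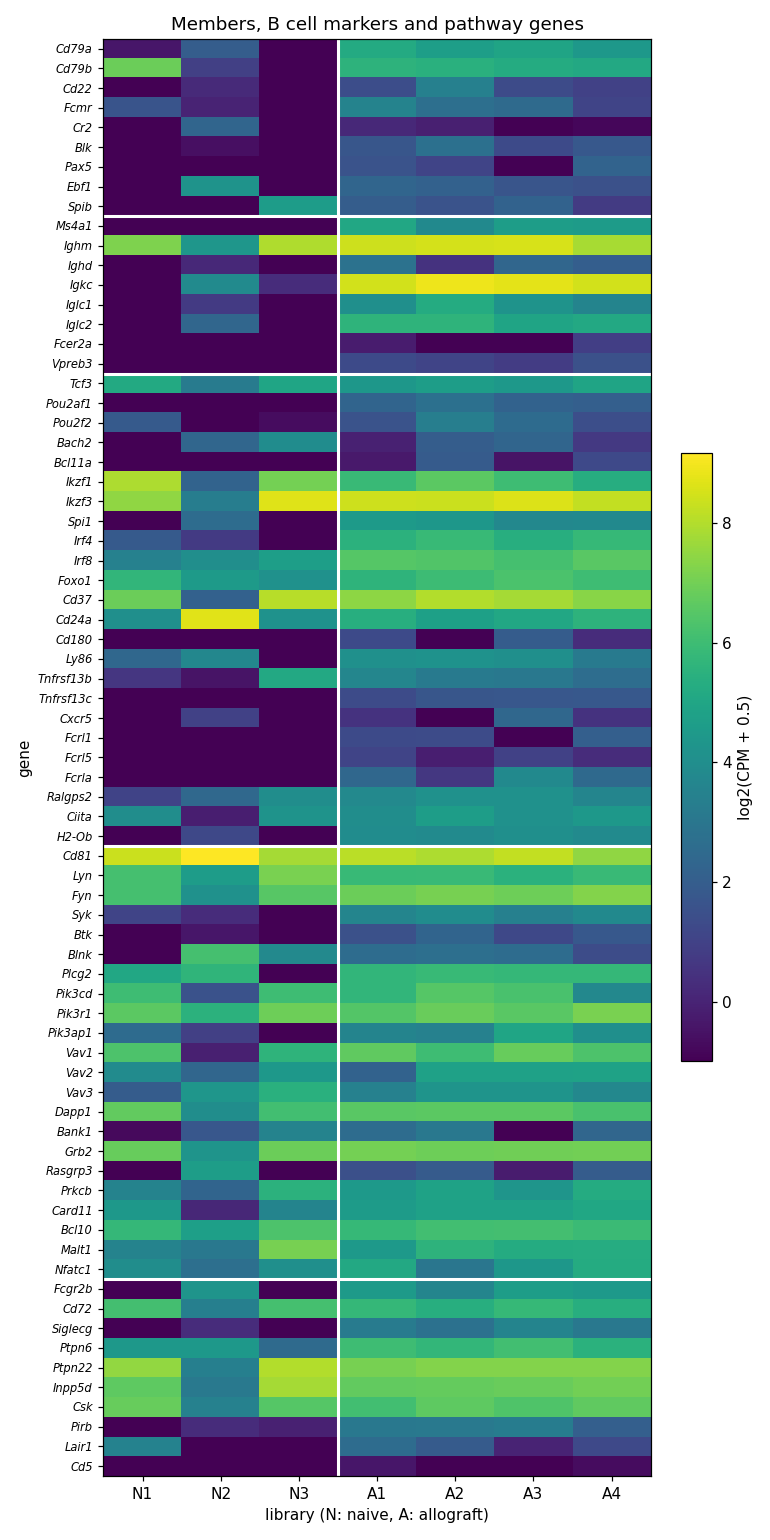
Log2(CPM + 0.5) in the 7 libraries (columns) for the 9 genes (top block), further B cell markers, and the identity, proximal signalling and inhibitory lists (blocks in that order, each gene drawn once). Ms4a1, Pou2af1 and Tnfrsf13c are at 0 counts in the 3 naive libraries, while general lymphocyte genes such as Fyn are present in all 7 libraries.

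By Pearson's r of log2(CPM + 0.5) over the 7 libraries, the genes most like Cd79a outside the 9 were Trim34a, Fgd2, Ifi205, Iglc3 and H2-Ob, with r from 0.994 to 0.996. All 5 had 0 counts in naive replicates 1 and 3 and 1.43 to 3.01 CPM in naive replicate 2. Iglc3 is a light chain constant gene and H2-Ob a class II chain gene of B cells. The closest by r, Trim34a, Fgd2 and Ifi205, are on none of the B cell lists examined here. Among the 9, r with Cd79a was 0.916 for Blk, 0.853 for Cd22, 0.748 for Fcmr, 0.661 for Pax5, 0.640 for Ebf1, 0.511 for Cd79b, 0.0979 for Cr2 and -0.00269 for Spib. As 536 of 17014 genes had r above 0.9 and the libraries fall into groups, r is given as a description of likeness only.

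Markers of whole cell types were set beside these values. The 8 B cell markers outside the described genes summed to 148, 40.2 and 250 CPM across naive replicates 1 to 3. In the allografts they summed to 654 to 950.3 CPM. Of the 8, 6 were higher in every allograft than in every naive library, against 12.5% of all tested genes. Among the 6, Ms4a1 and Vpreb3 had 0 counts in all naive libraries and could only come out higher. Nearly all of the sum in naive replicates 1 and 3 was Ighm (148 and 249 CPM). Ighm overlapped between the groups, with 226 to 377 CPM in the allografts. Above 3 counts were 1, 5 and 2 of them in naive replicates 1 to 3 and 7 or 8 in each allograft. Igkc, the kappa light chain gene, had 0, 14.1 and 0.711 CPM across the naive libraries and 351 to 485 CPM in the allografts. Genes of early B cell precursors (Igll1, Rag1, Rag2 and Dntt) had 0 counts in all 7 libraries, and Vpreb1 had 6.13 CPM in naive replicate 2 and at most 0.250 CPM elsewhere. Plasma cell markers, 7 genes, summed to 83.8 to 97.9 CPM in naive and 110 to 185 CPM in allograft libraries. Of these, 2 of 7, Jchain and Mzb1, were at 0 in the naive group and above it in every allograft, against 12.5% of all tested genes. At 0 naive counts neither could lie below. Jchain passed the test (edgeR adjusted p = 0.0278), where with 0 naive counts it could only come out higher. The others did not separate the groups. Sdc1 was highest in naive replicate 2 (16.7 CPM, at most 2.07 CPM in the allografts). Xbp1 and Prdm1 overlapped between the groups, and Tnfrsf17 and Derl3 had 0 counts in allograft replicate 1. The part of B cells or plasma cells carried through the sort in the values of the 9 genes was not tested.

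The naive libraries with high Cr2, Ebf1 or Spib were set against markers of other cells that use these genes. In naive replicate 2, 6 fibroblast and mural cell markers summed to 308 CPM (5 of 6 above 3 counts). Rgs5 (175 CPM) and Dcn (105 CPM) made most of it. The sum was 14.97 and 87.1 CPM in the other naive libraries and 19.8 to 48.0 CPM in the allografts. Pdgfrb had 14.9 CPM in naive replicate 1, where Ebf1 had 0 counts. It had 12.5 CPM in naive replicate 2, and Pdgfra had 0 counts in that library. The 5 measured follicular dendritic cell markers summed to 637 CPM there, carried by Clu (459 CPM) and Enpp2 (172 CPM), with the defining gene Cxcl13 at 0 and Madcam1 at 0.330 CPM, against 0 in the other naive libraries and 6.29 to 16.6 CPM in the allografts. In naive replicate 3, the plasmacytoid dendritic cell gene Siglech was at 0 counts beside the 24.2 CPM of Spib, while the whole list of 7 summed to 472 CPM (4 of 7 above 3 counts), of which Klk1 made 302 CPM. The same list summed to 3570 CPM in naive replicate 2 (7 of 7 above 3 counts, Klk1 3489 CPM), where Spib had 0 counts, and to 98.3 CPM in naive replicate 1. In the allografts that list summed to 172 to 245 CPM with Siglech at 2.34 to 6.56 CPM. T cell markers, 7 genes, summed to 271, 24.7 and 542 CPM across naive replicates 1 to 3 and 583 to 728 CPM in the allografts. That sum was carried by Trbc2 (383 to 481 CPM in the allografts) and Cd3g (175 to 219 CPM). In the allografts Cd3e had at most 1.24 CPM, Cd4 at most 0.721 CPM and Cd8a at most 2.25 CPM. Cd3d was highest in naive replicate 3 (32.5 CPM). The 6 myeloid markers summed to 2.49, 254 and 453 CPM across the naive libraries and 160 to 254 CPM in the allografts. The part of these cells in the results was not tested.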

How the data were processed

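The authors deposited whole-number counts per gene, and FPKM values for the same 55335 identifiers in 7 libraries. Per the labels' protocols, cDNA was amplified with a single-cell full-length kit. The submitters' processing notes name FastQC 0.11.5, STAR 2.5.3a, StringTie 1.3.1c, DESeq2 1.16.1 and mm10, with no roles. The annotation and use of strand are not given in the sources used here. Over 7340 genes with high counts, deposited FPKM was proportional to CPM (SD of the log ratio at most 0.00244). Columns matched samples by library name, and groups came from titles.

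CPM scales by the total of deposited counts. Counts were tested with edgeR 4.0.16 (R 4.3.3, TMM, filterByExpr, quasi-likelihood, no covariate), with SEs implied by F. DESeq2 1.42.0 and limma 3.58.1 gave alternatives, and the edgeR script was tested on simulated data. Wilson intervals (95%) and floors (3 counts) cover counting error only, and the sources used here state no molecular identifiers. Single values used exact permutation of the difference of group means, 9 such tests in all. Nothing says that pools were separate cohorts, so p-values measure the spread between libraries. Gene positions are from GENCODE M21 (GRCm38), and promoters from RefSeq.

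The 9 genes and all lists were chosen with earlier results of these data known. Named were the 9 genes, each pathway list's called genes or otherwise its 3 with the smallest p, and the 5 genes most like Cd79a; other names were chosen after their values were seen. An item of the lists is not reported here and was left out of their counts. The marker gene Fdcsp had no row of that symbol.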

Additional observations from a re-analysis of the deposited data

Results flagged for a closer look

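Cd22 in allograft replicate 2 had 10.2 CPM, against 1.48 to 2.14 CPM in the other 3 allografts, a gap that took up 0.925 of the group's range and passed Dixon's 95% critical value for 4 samples. Of 18 genes examined in this way (the 9 genes and 9 of the pathway lists) in the allografts, 1 stood apart, and chance gives about 0.9. Blk was also highest in that library (6.202 CPM against 1.91 to 2.99 CPM), without passing the same limit.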

How the results depend on the processing

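Direction and call were kept by Cd22 and Fcmr under all 15 alternatives. Blk kept its direction under all 15 and was called under 3, and Cd79a kept it under all 15 and was called under 1. Pax5 was higher under all 11 that tested it and was called under 1. With 0 counts in all naive libraries, Pax5 could take no other direction. The number of the 9 genes called, 0 in the edgeR fit, was 2 with DESeq2, 2 with limma on log2(FPKM + 0.1) and 0 to 2 when 1 library was left out. The number of all genes called, 6, was 1012 with DESeq2, 309 with limma on FPKM, 1 with limma-voom and 0 to 560 when 1 library was left out (107 without naive replicate 1, 560 without naive replicate 2, 0 without any 1 allograft). With a replicate block it was 0 (252 at an unadjusted p under 0.05) and 0 of the 9 genes were called. The numbers do not pair the libraries, since deviations of same-numbered libraries correlated at 0.0169, -0.0196 and 0.0360.

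The sign of Cd79b, near 0, turned with DESeq2 (-0.0023) and with DESeq2 size factors in edgeR (-0.0027), and ran from -0.54 to 5.31 without 1 library. Cr2 turned to 1.65 with limma-voom and 0.49 with the replicate block, and ran from -3.53 to 6.51 without 1 library. Ebf1 turned to 0.58 with limma on FPKM, 5.63 with limma-voom and 7.17 with the block, and ran from -1.96 to 10.1. Spib turned to 1.07, 5.34 and 6.82 under the same 3 settings, and ran from -2.16 to 9.77. The upper ends for Cr2, Ebf1 and Spib came from fits in which the naive libraries had 0 counts, so they could only be positive. The causes other than the left-out libraries were not tested. The difference in mean CPM without naive replicate 2 was 28.2 for Cd79a (exact p = 0.0667, the smallest 15 splits allow), -17.8 for Cd79b, 0.279 for Cr2 and 3.39 for Ebf1. TMM-scaled CPM reversed no difference, and left the same 3 genes without overlap (10.5% of all genes). DESeq2 size factors moved the median of all genes from -0.01 to -0.20, limma on FPKM to 0.52 and limma-voom to 0.66. Thinning and both filters reversed no direction among the genes they tested. A mean of at least 50 counts and some fits without 1 allograft could not be fitted for Cr2 or Pax5. Thinning for detection was added after seeing the data. Counts were few for some values, as for Cr2 in the allografts (at most 27 counts in a library).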
